A study of Mus musculus with 18 samples.

Results

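Changes that Ptch+/- medulloblastomas (MBs) shared against granule neuron progenitors (GNPs) of the same genotypes were examined on 10 of the 18 arrays of the series. These were 1 MB of a Ptch+/- mouse, 1 MB of an NdpKO;Ptch+/- mouse, 4 arrays of Ptch+/- GNPs and 4 arrays of NdpKO;Ptch+/- GNPs. All 10 samples carried a heterozygous germ-line mutation of Ptch, the gene of the hedgehog receptor. NdpKO is a null allele of the X-linked gene for Norrin, in which a lacZ cassette disrupts Ndp, and the compound mutants were Ndp-/y males, while the Ptch+/- samples have no sex label and the study used controls of both sexes. The GNPs came from cerebella at postnatal day 6 and were purified on a Percoll gradient with pre-plating, whereas the MBs were dissected from symptomatic mice. The age label of both MBs nevertheless reads postnatal day 6. The Ptch+/- samples were labelled C57Bl/6. The NdpKO;Ptch+/- samples had no strain label except GNP replicate 2, labelled mixed, whose title gives NdpKO;Ptch+/- while its source and genotype labels give Ndp knockout, and which was grouped by its title. Ptch+/- mice were kept on C57Bl/6 and NdpKO mice on a mixed background. With 1 MB per genotype, no MB had a replicate of its own. Tissue, age of the mouse and preparation changed together, so their parts in any difference below cannot be told apart. A lower signal can also come from fewer cells of a type or from less RNA per cell, which these bulk samples cannot tell apart.

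GNPs of the external granule layer divide in response to Sonic hedgehog from Purkinje cells, and later leave the cell cycle, migrate inward and become granule neurons. Ptch1 restrains Smoothened, and its loss lets the Gli transcription factors drive cyclins and other targets, so that MBs of the Shh subgroup arise from GNPs in Ptch+/- mice. Norrin is a secreted ligand of the receptor Fzd4 with the co-receptors Lrp5 and Tspan12, and acts on endothelial cells of the cerebellum.

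Expression is given as the deposited log2 level, on which all arrays had the same median, near 4.13. Level 5 was used as a limit near background, and 26.4% of the 45281 probes had a mean at or above it in the brighter of the 2 tissues, here called measured. The quantity compared is the log2 difference MB minus GNP, with genotype as a covariate, given ± SE with an adjusted p over all 45281 probes from limma. A change was called shared where the adjusted p was under 0.05 and both MBs lay outside the range of all 8 GNP arrays on the same side. Where a group lay under level 5, every array under 5 was set to 5 and the fold is given as "at least". Between them the MBs correlated at 0.98 over all probes, against means of 0.95 between either MB and the GNP groups and 0.99 or more among GNPs of 1 genotype. These correlations are descriptive, since the points are probes on arrays normalised together. NdpKO;Ptch+/- GNP replicate 1 correlated better with the Ptch+/- GNPs than with its own group (0.995 against 0.991).

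The test alone called 3898 probes higher (8.61%) and 2745 lower (6.06%) in the MBs. A shared change was found at 6462 probes, 14.3% of all. The MBs were higher at 3798 of them (8.39% of probes, 2256 genes) and lower at 2664 (5.88%, 1873 genes). Among measured probes the numbers were close, with 2362 higher and 2396 lower, and the log2 difference was 1 or more at 1452 and 1257 of these. A further 1436 rises and 268 falls lay below level 5 in both tissues and were not interpreted. Both MBs lay above the GNP range at 11.3% and below it at 11.8% of probes, whether called or not. When each MB was set against the mean of the 4 GNP arrays of its own genotype, shared changes at measured probes differed in size between the MBs by a median of 0.34. The rise was the larger in the Ptch+/- MB at 54.4% of probes that rose, and the fall was the larger there at 56.6% of those that fell. At 536 probes the Ptch+/- MB lay above and the NdpKO;Ptch+/- MB below the GNP range, and at 495 probes the reverse held.

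**Figure D1:**
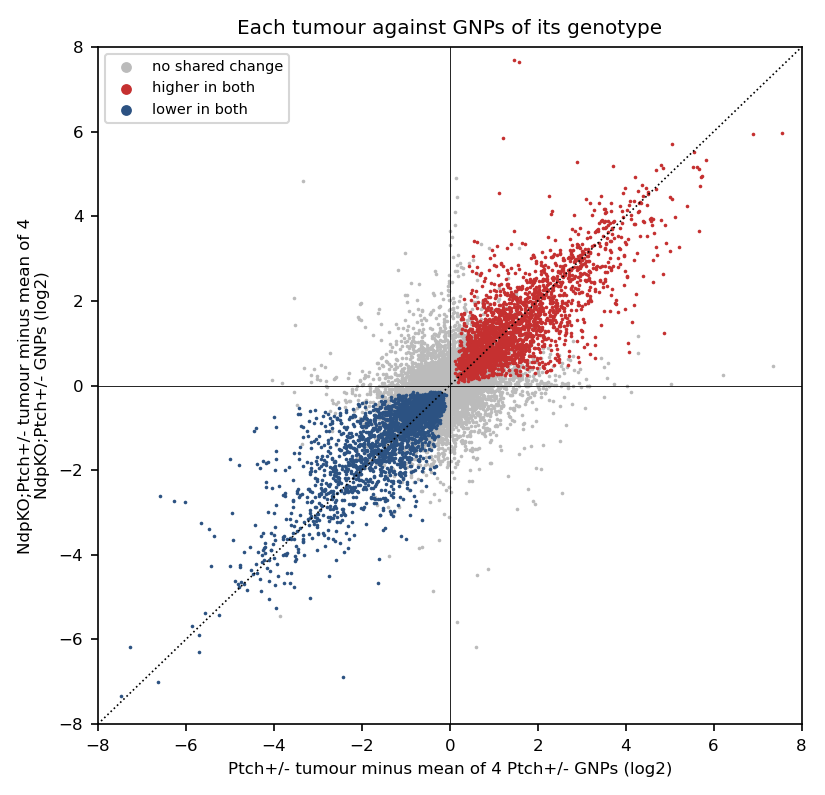
Log2 difference of the Ptch+/- MB (x axis) and of the NdpKO;Ptch+/- MB (y axis) from the mean of the 4 GNP arrays of the same genotype, 1 point per measured probe (11970 probes). Red and blue points are the 2362 shared rises and 2396 shared falls, and grey points off the diagonal are probes that only 1 MB changed or that did not pass the test.

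The changes fell unevenly over 31 gene lists, on which each gene is given by its brightest probe unless another is named. With 1 probe for each of 19057 genes, 9.13% rose and 8.05% fell in both MBs, background included. Over the 7393 of these genes that were measured, 17.7% rose in both MBs and 19.4% fell, and the median difference over these genes was -0.03. Rises took in 13 of 13 measured microglial and leukocyte genes, of 25 with a probe, and 9 of 14 lysosomal and phagocyte genes. Falls took in 16 of 19 immediate-early genes, 12 of 14 genes of cholesterol synthesis and uptake, 10 of 16 oligodendrocyte and myelin genes and 5 of 9 Purkinje cell and GABAergic interneuron genes. The cell cycle list lay near the background in rises (9 of 37) and under it in falls (2 of 37). A gene at background in 1 tissue counted as measured only where the other tissue was high, which favoured a call. That held for the lists and for the shares over all measured genes.

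**Figure D2:**
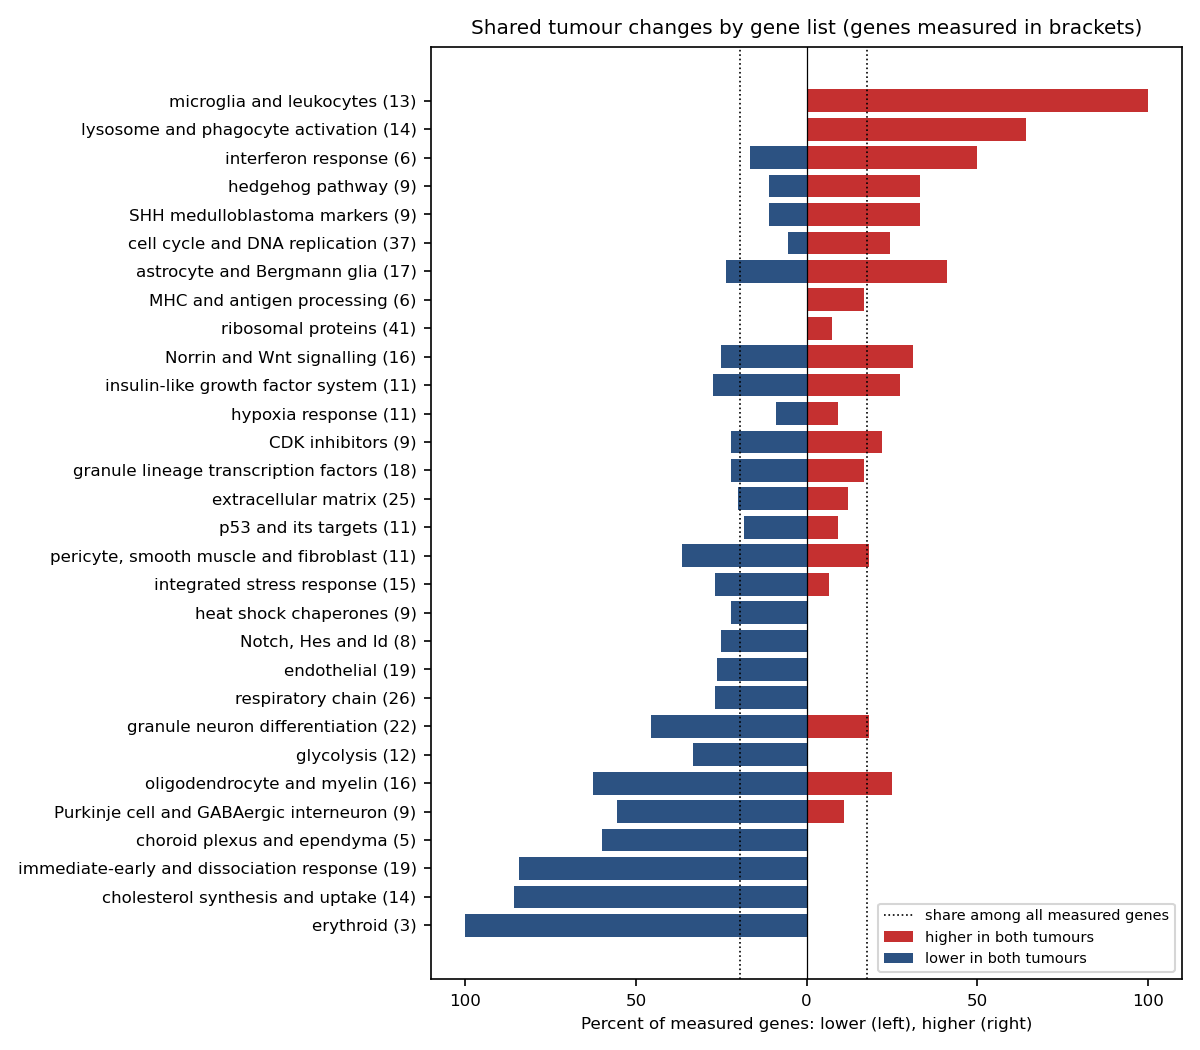
Percent of the measured genes of each list that were higher (right, red) or lower (left, blue) in both MBs, with the number of measured genes in brackets; lists with fewer than 3 measured genes are left out. Dotted lines mark 17.7% and 19.4%, the shares among all 7393 measured genes. The microglial list reaches 100% on the right, for 13 measured genes of 25 with a probe. The immediate-early and cholesterol lists reach 84.2% and 85.7% on the left.

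Genes of myeloid cells rose in both MBs. Lyz2 (ILMN_1252076), the lysozyme of macrophages and microglia, was measured at 4.19, 4.34, 4.45 and 4.86 in Ptch+/- GNPs and at 5.41, 6.04, 4.55 and 4.90 in NdpKO;Ptch+/- GNPs, against 12.01 in the Ptch+/- MB and 11.20 in the NdpKO;Ptch+/- MB. The MBs stood far above every GNP array, at least 86.0-fold higher (6.77 ± 0.45, adjusted p = 4.2e-05). Its paralogue Lyz1 (ILMN_2878071) had 13.68 and 13.36 in the MBs and 7.27 to 8.80 in the GNPs, but the sequences of Lyz1 and Lyz2 are close enough that the probes may not separate them. Fcer1g, the shared signalling chain of immunoglobulin receptors, had a GNP median of 4.67 and reached 10.40 and 8.67 in the MBs. Of the chains of complement C1q, C1qb had a GNP range of 6.41 to 7.46 and 11.37 and 9.96 in the MBs (3.79 ± 0.40, 13.8-fold, adjusted p = 4.8e-04). C1qc rose by 4.38 ± 0.49 and C1qa by 2.94 ± 0.17. All 8 GNP arrays lay at background for C1qa, Aif1, Trem2, Ly86, Tyrobp, Cx3cr1 and Csf1r. For Trem2, a lipid receptor of microglia, the MBs had 8.40 and 8.17, at least 9.73-fold higher. For Csf1r, the receptor on which microglia depend for survival, they had 6.02 and 6.74, at least 2.60-fold higher. Csf1r and Cx3cr1, the fractalkine receptor, were the higher in the NdpKO;Ptch+/- MB, and the other measured genes of the list in the Ptch+/- MB. Of 25 list genes with a probe, 12 lay below level 5 in both tissues, among them the lymphocyte gene Cd3e, the NK cell gene Nkg7 and the defining microglial genes P2ry12, Tmem119, Itgam, Ptprc and Spi1. The log2 of the summed level of the list was 9.91 to 10.70 in the 8 GNP arrays, 13.85 in the Ptch+/- MB and 12.97 in the NdpKO;Ptch+/- MB.

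Lysosomal genes rose with them. Gpnmb, a membrane glycoprotein of lipid-laden phagocytes, lay at or near 4.1 in all 4 NdpKO;Ptch+/- GNP arrays and at 4.18, 5.51, 4.47 and 5.65 in the Ptch+/- GNP arrays, and rose to 11.85 and 10.07 (at least 56.2-fold, adjusted p = 2.9e-05). Apoe, the lipid carrier, had 11.35 and 10.47 in the MBs and 7.98 to 9.27 in the GNPs, 5.42-fold higher. The receptor kinase gene Axl, the progranulin gene Grn and the lysosomal enzyme genes Ctsz, Hexa and Ctsb rose by 1.57, 1.23, 1.18, 1.02 and 0.94. Cd63 rose by only 0.19 ± 0.04 (adjusted p = 0.024). Several of these genes are also used outside phagocytes. Lgals3, Lamp1, Lpl and Npc2 had no shared change. Lamp2 had none at its 3 brighter probes and rose at the dimmest measured one (1.35 ± 0.29, adjusted p = 0.018).

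Genes of antigen presentation did not move as a group. B2m, the light chain of MHC class I, rose from a range of 9.93 to 10.44 in the GNPs in both MBs (0.66 ± 0.14, adjusted p = 0.019). The class II genes H2-Ab1 and Cd74 had 7.34 and 7.11 in the Ptch+/- MB, against 4.16 and 4.12 in the NdpKO;Ptch+/- MB and at most 4.22 and 4.17 in any GNP array, with no shared change. Of 6 measured genes B2m alone rose, or 3 without the NdpKO;Ptch+/- MB. Of 6 measured interferon-responsive genes 3 rose, Ifit2 (2.77 ± 0.14), Ifi27 (1.69 ± 0.18) and Ifit3 (1.38 ± 0.31). Ifit3 had 6.41 in the Ptch+/- MB but 4.68, under level 5, in the NdpKO;Ptch+/- MB, against at most 4.20 in any GNP array. The summed level of the list was 11.10 in the Ptch+/- MB, above the GNP range of 9.94 to 10.92, and 10.57 in the NdpKO;Ptch+/- MB, within it. Irf1, a transcription factor of the same response, fell by 1.33 ± 0.22.

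**Figure D3:**
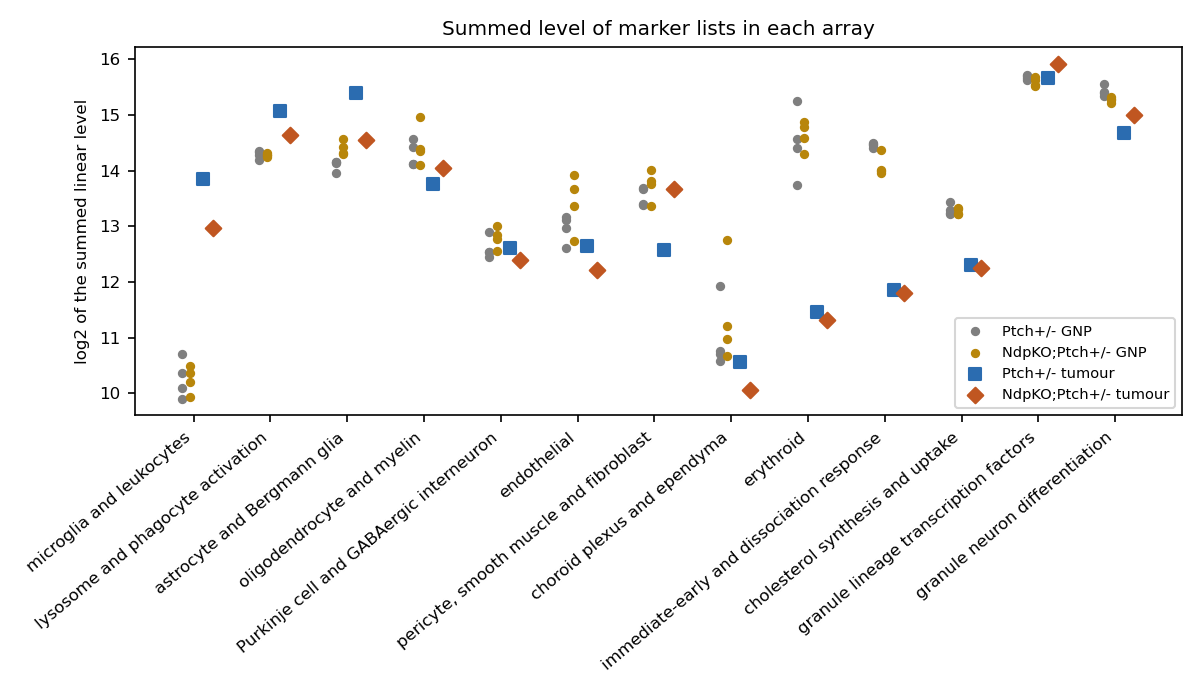
Log2 of the summed linear level of the genes on 13 lists in each array. Circles are GNP arrays (4 per genotype), squares the Ptch+/- MB and diamonds the NdpKO;Ptch+/- MB. Both MBs lie above all GNP arrays for the microglial and lysosomal lists. They lie below them for the erythroid, immediate-early, cholesterol and granule neuron differentiation lists. They also lie narrowly below the lowest GNP array for the oligodendrocyte (13.76 and 14.06 against 14.11) and choroid plexus lists (10.56 and 10.06 against 10.58).

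Glial markers divided. Of 17 measured astrocyte and Bergmann glia genes, 7 rose and 4 fell. Apoe is one of the 7. Gfap, the intermediate filament of reactive astrocytes, had 9.91 and 10.28 in the MBs and 7.31 to 8.97 in the GNPs (1.84 ± 0.31, adjusted p = 0.0057). The sodium pump subunit gene Atp1b2 rose by 1.95 ± 0.29, the glutamate transporter gene Slc1a2 by 1.59 ± 0.36 and the glial transcription factor gene Sox9 by 1.09 ± 0.20. Gdf10, a growth factor of Bergmann glia, fell from a range of 9.11 to 10.60 to 7.27 and 6.58 (7.78-fold, adjusted p = 5.6e-04). The differences were -1.94 ± 0.15 for the gap junction gene Gja1, -1.25 ± 0.10 for the filament gene Vim and -0.43 ± 0.11 for the water channel gene Aqp4. Without the Ptch+/- MB 4 of the 7 rises were left. The summed level of the list was above the GNP range of 13.96 to 14.57 in the Ptch+/- MB (15.40) and within it in the NdpKO;Ptch+/- MB (14.54).

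Of 16 measured oligodendrocyte and myelin genes 10 fell and 4 rose. Mag (ILMN_1237021), a glycoprotein of the innermost myelin membrane, had 10.55 at the lowest, 11.04 at the median and 11.84 at the highest GNP array, and 4.20 and 4.16 in the MBs, at least 63.6-fold lower (-6.81 ± 0.30, adjusted p = 3.5e-06). Both MBs lay under level 5 for Mag, Mobp, Mog, Fa2h and Enpp6. Enpp6, a marker of newly forming oligodendrocytes, was at least 24.8-fold lower. Mbp (ILMN_2737200), the myelin basic protein, had 8.31 and 7.93 in the MBs against 11.92 to 13.26 in the GNPs, 20.6-fold lower. A dimmer Mbp probe, ILMN_3011353, rose by 0.45 ± 0.10 (adjusted p = 0.023), so the probes of this gene did not move together. Ugt8a and Cnp, enzymes of myelin, Cldn11, its tight junction protein, and Gpr17, a receptor of committed precursors, fell, with differences of -3.97, -3.66, -2.96 and -1.36. Among the rises, the lineage transcription factor gene Olig1 had 12.49 and 11.92 in the MBs and 9.92 to 10.64 in the GNPs (1.90 ± 0.19, 3.74-fold, adjusted p = 3.7e-04). Pdgfra, the growth factor receptor of oligodendrocyte precursors, rose by 1.39 ± 0.17 (adjusted p = 9.5e-04). Bcas1 rose by 0.93 ± 0.18. Cspg4, the proteoglycan NG2 of precursors and pericytes, had 4.81 and 5.51 against at most 4.30 in any GNP array, close to background. Sox10, which marks the whole lineage, had 8.16 and 9.25 against 7.45 to 8.61 with no shared change, and the Olig2 probe lay at background.

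Of 9 measured genes of the Purkinje cell and GABAergic interneuron lineages 5 fell, each to background, and 1 rose. The summed level of the list was 12.61 in the Ptch+/- MB, within the GNP range of 12.45 to 13.01, and 12.39 in the NdpKO;Ptch+/- MB, below it. Slc32a1, the vesicular GABA transporter, had 9.69 to 10.57 in the GNPs and 4.24 and 4.12 in the MBs (at least 36.3-fold, adjusted p = 4.6e-07). Ptf1a, the transcription factor that directs cerebellar progenitors to GABAergic fates, had 8.03 to 9.01 in the GNPs and 4.10 and 4.11 in the MBs (at least 12.5-fold). Lhx5, Gad1, which encodes a GABA-synthesising enzyme, and the Purkinje cell gene Pcp2 fell to background too, by at least 6.78, 15.1 and 15.4-fold. Tfap2b, a transcription factor of the same lineages that was on no list, had 9.25 to 9.68 in the GNPs and 4.15 and 4.13 in the MBs, and 2 further measured probes fell, with differences of -4.24 and -4.04. In contrast, Lhx1, a relative of Lhx5, rose from a range of 11.40 to 11.70 to 12.31 and 12.04 (0.65 ± 0.07, adjusted p = 7.3e-04). Pvalb, Rora and Gad2 had no shared change.

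The globin genes and some genes of the vessel wall fell. The globin genes Hba-a1, Hbb-bt and Hbb-bs had 12.05 to 13.80 in the GNPs and 9.39 to 10.04 in the MBs, and fell, with differences of -3.09 ± 0.36, -3.24 ± 0.35 and -3.35 ± 0.31. Hbb-bt and Hbb-bs are near-identical copies. Of 19 measured endothelial genes 5 fell (26.3%, against 19.4% of all measured genes) and 0 rose. Mfsd2a, a lipid transporter of the blood brain barrier, had 6.25 and 4.93 in the MBs and 8.34 to 9.36 in the GNPs (-3.31 ± 0.26, at least 9.67-fold, adjusted p = 1.0e-04). Cldn5, the endothelial tight junction protein, had 8.64 and 8.18 against 10.59 to 11.63, 6.55-fold lower. Esam, Egfl7 and Robo4 fell, with differences of -2.11, -2.01 and -1.93. Pecam1 and Cdh5, which define endothelium, lay at background in both MBs (4.17 and 4.18, 4.17 and 4.22), but GNP arrays reached from 4.36 to 7.07 and from 4.41 to 7.32, and these differences did not pass the test. With probes filtered on level, or with an intensity trend in the fit, 10 endothelial genes fell. Of 11 mural and fibroblast genes 4 fell (36.4%) and 2 rose (18.2%), against 19.4% and 17.7% of all measured genes. The 2 that rose were Pdgfra and Cspg4, described above. With any GNP array but NdpKO;Ptch+/- replicate 3 left out, or without the Ptch+/- MB, 2 of the falls were left. The fibroblast gene Slc6a13 had 5.44 and 4.49 against 8.30 to 8.85, at least 10.6-fold lower. The summed endothelial level was 12.65 in the Ptch+/- MB, within the GNP range of 12.61 to 13.92, and 12.22 in the NdpKO;Ptch+/- MB. Of the choroid plexus genes, Ecrg4 fell to background (at least 6.30-fold, adjusted p = 3.1e-05). Ttr, the defining choroid gene, had 4.12 in both MBs and ranged from 6.59 to 12.35 across the GNPs, with no call (adjusted p = 0.090).

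Transcription factor genes of the granule lineage rose and fell at shares near those of all measured genes (16.7% and 22.2%). Of 18 measured transcription factor genes 11 had no shared change, including Zic1 (12.73 and 13.10 against 12.70 to 13.08), Insm1 and Neurod1. Meis1, a homeobox gene of the lineage, was among them by its brightest probe (11.53 and 11.51 against 10.96 to 11.57), but rose at ILMN_1248401, with 10.20 and 10.29 against 6.89 to 7.41 (3.05 ± 0.13, adjusted p = 3.2e-06), and at ILMN_1218217 (1.53 ± 0.02). Sox11 likewise was not called at its brightest probe and rose by 0.27 ± 0.06 at a dimmer one. The nuclear factor I genes Nfia (1.77 ± 0.13, adjusted p = 6.4e-05) and Nfib (0.49 ± 0.11, adjusted p = 0.023) rose, as did Barhl1, a homeobox gene of the lineage (1.23 ± 0.31, adjusted p = 0.033). Neurod2, a transcription factor of maturing neurons, had 10.61 to 11.23 in the GNPs, 4.53 in the Ptch+/- MB and 8.10 in the NdpKO;Ptch+/- MB (-4.61 ± 0.73, adjusted p = 0.0040). Zic2, Sox2 and En2 fell, with differences of -1.56, -1.42 and -0.41. Without the NdpKO;Ptch+/- MB 1 of the 3 rises was left. Atoh1, which specifies GNPs, lay at background on all 10 arrays and could not be compared.

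Of 22 measured genes of granule neuron differentiation 10 fell and 4 rose. Syt1, the calcium sensor of synaptic vesicles, had 10.96 at the lowest, 11.18 at the median and 11.40 at the highest GNP array, and 7.41 and 7.25 in the MBs (-3.87 ± 0.11, 14.6-fold, adjusted p = 3.2e-07). Its 2 other probes with a GNP mean at or above 5 also fell. Unc5c, a netrin receptor of migrating granule neurons, had 10.01 to 10.69 in the GNPs and 4.54 and 7.30 in the MBs. Vsnl1, a neuronal calcium sensor, fell to background (at least 14.0-fold), and Kcnd2, a channel of the A-type potassium current, had 4.69 and 6.61 against 9.44 to 9.83. The cerebellin gene Cbln1, the microtubule regulator gene Stmn2 and the adhesion genes Cntn1 and Nrcam fell, with differences of -1.53, -1.25, -1.18 and -0.93. A dimmer Nrcam probe, ILMN_1229656, rose by 1.34 ± 0.21 (adjusted p = 0.0038), so the probes of this gene went opposite ways. Slc17a7, a vesicular glutamate transporter, was at least 2.24-fold lower and Calb2, a calcium-binding protein gene, 3.00-fold lower. Other genes of immature neurons differed little, such as Dcx (10.74 and 11.49 against 11.02 to 11.52). Against the direction of the list, Ntrk3 (ILMN_1253641), the receptor of neurotrophin 3, lay between 4.16 and 4.31 in all 8 GNP arrays and at 8.74 and 8.78 in the MBs (4.54 ± 0.04, at least 13.5-fold, adjusted p = 1.7e-10), and a further measured probe, ILMN_2599036, rose by 3.77 ± 0.11. The guidance gene Sema6a, Map2, a protein of dendritic microtubules, and Plxnb2, a semaphorin receptor, rose by 1.27, 0.89 and 0.41. Without the NdpKO;Ptch+/- MB 2 of the 4 rises were left.

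The hedgehog pathway could be read only in part. Of 18 genes with a probe 9 lay below level 5 in both tissues, among them the target genes Gli1, Hhip and Mycn. Ptch1 (ILMN_2460224), measured first as the mutated gene, had 7.63 to 8.23 in the GNPs, 8.69 in the Ptch+/- MB and 7.01 in the NdpKO;Ptch+/- MB. The MBs lay on opposite sides of the GNPs, and no difference was called (-0.10 ± 0.36, adjusted p = 0.92). Without the NdpKO;Ptch+/- MB the difference was 0.85, and without the Ptch+/- MB it was -1.05. Each of these rests on 1 MB, so no test is given for them. The probe reports transcript level and does not tell the mutant from the intact allele. Sfrp1, a secreted Wnt antagonist used as a marker of Shh-MB, had 12.79 and 12.96 against 10.77 to 11.27 (1.87 ± 0.14, 3.67-fold, adjusted p = 6.6e-05), and its other probe rose by 2.39. Sufu, an inhibitor of Gli proteins, rose by 1.55 ± 0.21 and the cyclin gene Ccnd2 by 0.84 ± 0.15. Ccnd1 had 12.96 and 11.97 against 11.24 to 12.02. It passed the test (0.80 ± 0.22, adjusted p = 0.045), but the NdpKO;Ptch+/- MB lay inside the GNP range, whose highest array was NdpKO;Ptch+/- replicate 1, so the change was not shared at this probe. A dimmer Ccnd1 probe, ILMN_2669793, had 11.25 and 9.84 against 8.44 to 9.63 and a shared rise (1.54 ± 0.35, adjusted p = 0.023). Gli3, which acts largely as a repressor of the pathway, fell from a range of 8.20 to 8.78 to 4.15 and 4.65 (at least 11.6-fold, adjusted p = 1.8e-06). Smo and Gli2 had no shared change. The list had 3 rises, but 5 without NdpKO;Ptch+/- GNP replicate 1 and 6 without the NdpKO;Ptch+/- MB. Of 9 measured genes on the list of Shh-MB markers, Sfrp1, Ntrk3 and Nes rose. Nes, a progenitor filament gene, had 9.05 and 7.52 against 4.43 to 6.20, at least 7.40-fold higher. Otx2, which was also on the choroid plexus list and is not read here as a marker of Shh-MB, fell by 0.49 ± 0.10.

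Norrin and Wnt signalling genes moved in both directions. Ndp, Fzd4 and Lrp5 lay at background on all 10 arrays, so the Ndp probe could not check the knockout, and Tspan12 had 7.29 and 6.63 against 6.14 to 6.74 with no call (adjusted p = 0.19). Of the receptors, Fzd7 had 10.62 and 9.64 in the MBs and 7.89 to 8.24 in the GNPs (2.13 ± 0.22, 4.37-fold, adjusted p = 4.2e-04) and Fzd2 had 8.48 and 8.70 against 6.10 to 7.21 (3.92-fold). Fzd3, which acts in axon guidance, fell by 1.72 ± 0.22 at its brightest probe, but rose by 1.04 ± 0.22 at the dimmer ILMN_2421436. Of the ligands, Wnt5a fell to background from a range of 6.46 to 7.47 (at least 3.68-fold, adjusted p = 1.7e-04). The antagonist gene Sfrp2 rose by 1.67 ± 0.18 and Dkk3 fell by 1.26 ± 0.09. Axin2, a target of canonical signalling, had 7.89 and 7.76 against 6.94 to 7.59, above all GNPs, but missed the threshold (0.60 ± 0.17, adjusted p = 0.053). Sp5, another such target that was on no list, fell to background (4.12 in both MBs against 9.51 to 10.31, at least 30.1-fold, adjusted p = 2.9e-07).

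Most cell cycle genes had no shared change. Of 37 measured genes 9 rose, 2 fell and 26 had neither. The replication helicase genes Mcm4 (0.86 ± 0.08), Mcm2 (0.84 ± 0.18) and Mcm7 (0.60 ± 0.13), the loading factor gene Cdc45 (0.76 ± 0.11) and E2f1 (0.59 ± 0.07) rose, together with the mitotic kinase gene Plk1, which had 10.16 and 10.12 against 8.93 to 9.43 (0.98 ± 0.08, adjusted p = 1.5e-04). Cenpf, Uhrf1 and Bub1b were the other rises. Cdk1 and Rrm2 fell, with differences of -0.50 ± 0.13 and -0.44 ± 0.11, but 0 of these falls were left without Ptch+/- GNP replicate 1, NdpKO;Ptch+/- GNP replicate 3 or the NdpKO;Ptch+/- MB, and 1 without any other Ptch+/- GNP array or NdpKO;Ptch+/- GNP replicate 4. Probes of some cell cycle genes were called differently. Top2a was not called at its brightest probe (10.76 and 10.44 against 10.32 to 10.73) and rose by 1.50 ± 0.23 at ILMN_1255436. Birc5 was not called at its brightest probe (-0.24 ± 0.09, adjusted p = 0.15) and fell at 2 others, with differences of -0.68 and -0.69. A dimmer Mcm7 probe gave -0.02 ± 0.09. Of 9 measured genes on the list of cyclin-dependent kinase inhibitors 2 fell and 2 rose (22.2% each), near the shares over all measured genes. Those that fell were Cdkn1c and Cdkn1b, of the proteins p57 and p27 that hold cells out of the cycle. Cdkn1c had 11.20 to 11.84 in the GNPs and 9.002 and 9.37 in the MBs (5.18-fold, adjusted p = 5.5e-06). Cdkn1b fell by 1.71 ± 0.21, the pocket protein gene Rbl1 rose by 1.20 ± 0.17, and Cdkn2c, of the inhibitor p18, rose by 0.50 ± 0.14 (adjusted p = 0.046). Of these rises 1 was left without any 1 of the Ptch+/- GNP arrays or NdpKO;Ptch+/- GNP replicates 1 and 2, and there were 4 without the NdpKO;Ptch+/- MB. The inhibitor gene Cdkn2a had 6.79 in the Ptch+/- MB and 4.18 in the NdpKO;Ptch+/- MB, where all GNP arrays lay near 4.11.

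**Figure D4:**
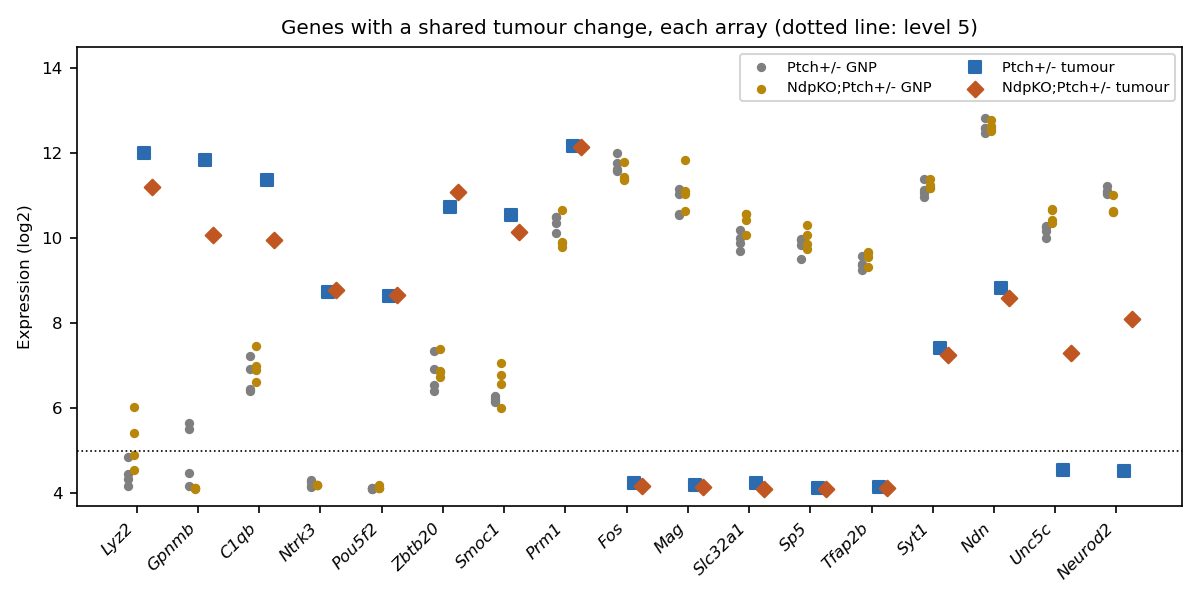
Log2 expression of 17 genes with a shared change in each of the 10 arrays. Circles are GNP arrays (4 per genotype), squares the Ptch+/- MB, diamonds the NdpKO;Ptch+/- MB, and the dotted line is level 5; the MBs lie close together for Ntrk3, Pou5f2, Prm1, Syt1 and Ndn and apart for Unc5c and Neurod2.

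Immediate-early genes, which respond within minutes to stimulation and also to dissociation of tissue, fell together. Promoter sequence is shown for 4 of them that fell to background and hold a short element of cAMP-responsive promoters. Each window holds the 250 bases before the annotated start in RefSeq (GRCm38.p6), 5′ to 3′ on the strand of the gene. Capitals mark that element, TGACG, or its reverse complement CGTCA.
Fos, chr12:85473640-85473889, plus strand: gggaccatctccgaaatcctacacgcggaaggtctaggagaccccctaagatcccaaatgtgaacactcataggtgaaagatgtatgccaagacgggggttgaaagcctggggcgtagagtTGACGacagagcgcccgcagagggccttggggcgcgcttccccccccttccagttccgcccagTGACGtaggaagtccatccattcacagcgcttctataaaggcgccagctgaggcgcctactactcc
Fosb, chr7:19310046-19310295, minus strand: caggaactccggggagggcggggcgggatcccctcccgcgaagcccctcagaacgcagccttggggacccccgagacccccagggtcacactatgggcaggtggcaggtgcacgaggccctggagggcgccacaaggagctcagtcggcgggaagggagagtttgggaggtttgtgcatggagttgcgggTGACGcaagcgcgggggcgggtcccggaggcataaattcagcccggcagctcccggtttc
Junb, chr8:84978749-84978998, minus strand: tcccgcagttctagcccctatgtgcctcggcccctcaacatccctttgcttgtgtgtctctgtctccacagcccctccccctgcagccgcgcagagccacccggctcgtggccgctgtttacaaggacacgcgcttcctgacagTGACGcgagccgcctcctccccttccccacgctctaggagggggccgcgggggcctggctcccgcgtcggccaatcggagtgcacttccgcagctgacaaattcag
Npas4, chr19:4989972-4990221, minus strand: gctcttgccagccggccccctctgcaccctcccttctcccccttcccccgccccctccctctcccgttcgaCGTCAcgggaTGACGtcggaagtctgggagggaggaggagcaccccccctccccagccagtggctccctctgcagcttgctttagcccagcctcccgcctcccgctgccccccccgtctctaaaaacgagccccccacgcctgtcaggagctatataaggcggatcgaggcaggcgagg
Both strands were searched, with no overlap rule between motifs. TGACG was found in 9 of the 15 falling genes with a promoter sequence, in 32.6% of 6058 measured genes and in 19.8% of all 27025 genes in the table. The full element TGACGTCA, which contains TGACG, was found in 1 of the 15 and in 3.43% of measured genes. The CArG box was found in 2 of the 15 and in 1.58% of measured genes, and the AP-1 element TGACTCA in 0 of the 15 and in 3.35%. A match is a string of letters and not a shown site, and the windows leave out distal elements.

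Fos (ILMN_2750515), a subunit of AP-1, had 11.38 at the lowest, 11.60 at the median and 12 at the highest GNP array, against 4.26 and 4.18 in the MBs. The GNP arrays lay close together and both MBs at background, at least 98.5-fold lower (-7.41 ± 0.14, adjusted p = 2.3e-08). The other AP-1 genes Fosb, Junb and Jund were at least 10.1, 11.9 and 7.48-fold lower, and Jun fell by 2.15 ± 0.19. Egr1 had 8.15 and 8.12 in the MBs and 11.34 to 12.33 in the GNPs, 13.7-fold lower (adjusted p = 1.2e-05). Npas4, which is specific to neuronal activity, fell to background from a range of 8.19 to 8.97 (at least 11.8-fold). Klf2, Zfp36, Atf3 and Klf4 were at least 14.4, 14.0, 8.72 and 2.62-fold lower. Klf6, Dusp1, a phosphatase that ends kinase signalling, Ier3, Egr2 and Nfkbia fell, with differences of -2.43, -2.25, -1.75, -1.45 and -1.35. Egr3 was the exception in direction, with 8.92 in the Ptch+/- MB, 4.20 in the NdpKO;Ptch+/- MB and 5.83 to 7.44 in the GNPs, and Socs3 had no shared change. The summed level of the list was 13.96 to 14.49 in the 8 GNP arrays, and 14.13 to 14.42 in the 4 wild-type GNP arrays of the series, against 11.86 and 11.81 in the MBs. Among stress genes outside the list, Ppp1r15a, which reverses translational arrest, was at least 20.8-fold lower, and Ddit3, Cebpb and Atf4 of the integrated stress response fell, with differences of -2.17, -2.22 and -1.22. Of 15 measured genes of that response 4 fell (26.7%, against 19.4% of all measured genes) and 10 had no shared change. The summed level of that response was 14.26 in the Ptch+/- MB, within the GNP range of 13.81 to 14.44, and 13.37 in the NdpKO;Ptch+/- MB. Psat1, a serine synthesis enzyme and target of that response, rose by 0.98 ± 0.10. The inducible heat shock gene Hspa1a, nearly identical to Hspa1b, fell from a range of 6.72 to 7.96 to background (at least 5.02-fold), while 7 of 9 heat shock genes had no shared change.

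Genes of cholesterol synthesis fell in both MBs along most of the pathway. The transcription factor SREBP2, the product of Srebf2, drives these genes when sterols run low, together with the CCAAT-binding factor NF-Y. The 250 bases before the start are shown for 4 of them, each with at least 1 CCAAT box, which capitals mark as CCAAT or, on the other strand, as ATTGG.
Cyp51, chr5:4104698-4104947, minus strand: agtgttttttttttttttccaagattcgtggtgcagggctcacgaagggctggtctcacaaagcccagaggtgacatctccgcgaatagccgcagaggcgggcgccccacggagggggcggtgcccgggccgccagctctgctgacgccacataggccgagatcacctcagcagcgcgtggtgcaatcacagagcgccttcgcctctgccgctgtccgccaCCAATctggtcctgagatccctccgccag
Msmo1, chr8:64733579-64733828, minus strand: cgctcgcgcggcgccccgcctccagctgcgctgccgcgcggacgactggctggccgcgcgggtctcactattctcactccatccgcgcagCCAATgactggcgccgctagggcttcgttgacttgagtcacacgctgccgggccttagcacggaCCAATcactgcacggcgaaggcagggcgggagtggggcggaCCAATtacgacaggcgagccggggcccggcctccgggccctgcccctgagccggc
Nsdhl, chrX:72918271-72918520, plus strand: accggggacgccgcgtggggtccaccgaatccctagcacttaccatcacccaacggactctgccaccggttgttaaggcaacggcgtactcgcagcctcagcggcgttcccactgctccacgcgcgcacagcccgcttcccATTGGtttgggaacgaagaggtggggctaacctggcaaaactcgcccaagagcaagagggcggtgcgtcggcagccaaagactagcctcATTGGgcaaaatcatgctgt
Mvd, chr8:122443423-122443672, minus strand: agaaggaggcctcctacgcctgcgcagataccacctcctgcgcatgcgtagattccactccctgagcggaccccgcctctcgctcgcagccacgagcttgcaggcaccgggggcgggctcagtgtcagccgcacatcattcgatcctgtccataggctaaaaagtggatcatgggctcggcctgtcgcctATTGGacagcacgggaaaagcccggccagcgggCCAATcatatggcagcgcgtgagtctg
CCAAT was found in 10 of the 10 falling genes that had a promoter sequence, which left out Sqle and Fdps. It was found in 41.5% of measured genes, in 37.5% of all genes, in 5 of 15 falling immediate-early genes and in 4 of 10 rising microglial genes. The sterol element was found as TCACNCCAC in 0 of the 10 and in 1.16% of measured genes, and as TCANNCCAC in 0 of the 10 and in 3.68%. No other form of the sterol element was searched, so these counts do not show that the promoters lack one. These were 9 motifs in all, chosen with the values known, and of the other 2 GAGGAAGT of PU.1 was found in 1 of 10 rising microglial genes and in 2.61% of measured genes, and TGGGTGGTC of Gli proteins in 0 genes of these lists.

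Following the pathway, Pmvk and Mvd of its mevalonate arm had 4.97 and 5.44 against 5.87 to 7.15, and 8.34 and 8.03 against 8.75 to 9.69. Fdps, which makes farnesyl diphosphate, had 10.68 and 10.40 against 11.45 to 11.78 (-1.04 ± 0.08, adjusted p = 1.0e-04). Sqle and Lss, which oxidise squalene and close it to lanosterol, fell, with differences of -1.07 ± 0.12 and -1.77 ± 0.19. Both MBs lay under all 8 GNP arrays at each of these steps. Cyp51, the lanosterol demethylase, had 7.55 and 6.73 against 9.26 to 9.83 (5.33-fold lower, adjusted p = 2.3e-04). Msmo1, Nsdhl, Hsd17b7 and Ebp act between it and the last steps. Nsdhl fell to background from a range of 6.66 to 7.81 (at least 4.68-fold), and the differences were -1.79 ± 0.30 for Msmo1, -0.71 ± 0.10 for Ebp and -0.67 ± 0.14 for Hsd17b7. Dhcr7, which makes cholesterol itself, also fell to background (at least 2.87-fold). Srebf2 had 7.68 and 7.50 against 8.43 to 8.57, a small but even fall of 0.92 ± 0.05 (adjusted p = 1.0e-05). The probes of Insig1, which retains SREBP in the endoplasmic reticulum, did not move together. At ILMN_2895388 the MBs had 6.25 and 7.13 inside the GNP range of 5.85 to 7.74, whereas ILMN_1245272 fell to background, with 4.30 and 4.22 against 6.86 to 7.50 (-2.97 ± 0.19, adjusted p = 3.3e-05). Stard4, a sterol carrier, had 9.12 and 9.02 inside 8.98 to 9.63. The 4 other genes with a probe, Mvk, Idi1, Tm7sf2 and Sc5d, lay below level 5 in both tissues, and 6 of the 24 genes on the list had no named probe in the table. With a margin of 1 on the log2 scale beyond the GNP range, 5 of the 12 falls were left. The myelin genes described above moved with this list, and the part of myelinating cells in it was not tested.

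**Figure D5:**
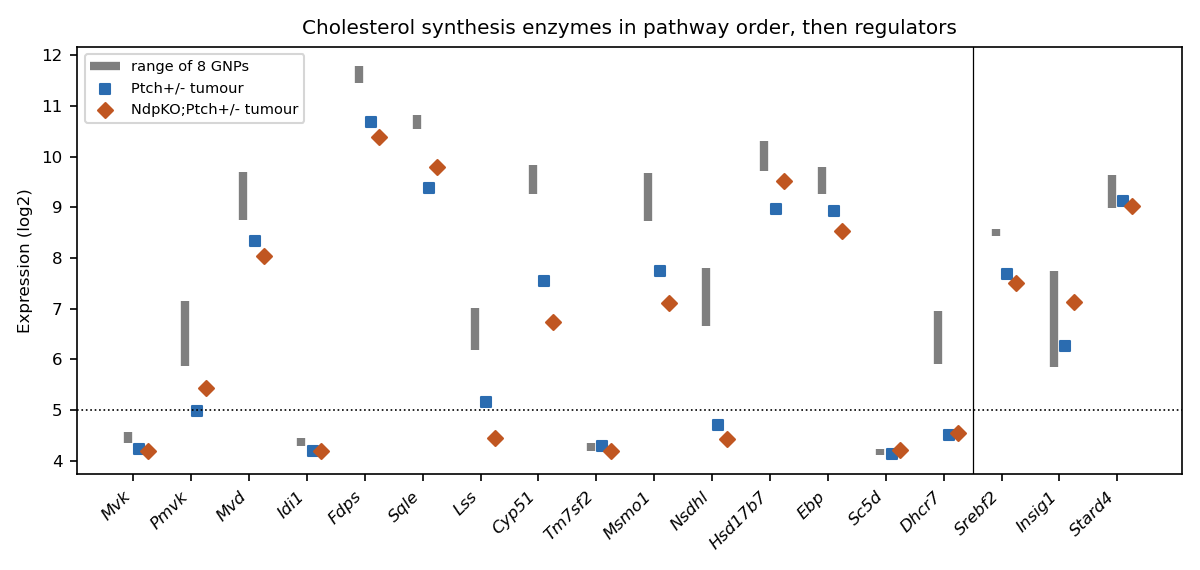
Log2 expression of cholesterol synthesis enzymes in pathway order, and of 3 regulators and carriers to the right of the vertical line. Grey bars span the 8 GNP arrays, squares are the Ptch+/- MB and diamonds the NdpKO;Ptch+/- MB, and the dotted line is level 5; the MBs lie under the grey bar for all measured enzymes and Srebf2, and inside it for Stard4 and the plotted Insig1 probe, the brightest by its mean over the 10 arrays; another Insig1 probe, not plotted, fell to background.

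Some genes of energy metabolism fell, at shares of 33.3% for glycolysis and 26.9% for the respiratory chain, against 19.4% of all measured genes. Of 12 measured glycolytic genes 4 fell, with differences of -2.85 ± 0.53 for Eno2, the neuronal enolase, -1.81 ± 0.48 for Pfkp, -1.45 ± 0.16 for Tpi1 and -0.73 ± 0.14 for Pfkm, and 2 were left when either MB was left out. Gapdh and Pkm had no shared change. Of 26 respiratory chain genes 7 fell, with differences from -0.45 (Uqcrc2) to -0.30 (Cox6a1), and 3 were left without the Ptch+/- MB and 4 without NdpKO;Ptch+/- GNP replicate 3. Of 41 ribosomal protein genes 38 had no shared change. Rpl23 (0.53), Rps6 (0.39) and Rpl3 (0.36) rose, with 1 of these left without the Ptch+/- MB and 6 rises without the NdpKO;Ptch+/- MB. In the insulin-like growth factor system, the ligand gene Igf1 rose from background to 7.26 and 6.72 (at least 3.97-fold, adjusted p = 7.2e-06) and Insr by 0.65 ± 0.11, while the binding protein gene Igfbp5 (-1.50 ± 0.22) and the receptor gene Igf2r (-1.94 ± 0.21) fell.

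Of 25 measured matrix genes 3 rose (12%) and 5 fell (20%), shares at or under those of all measured genes. Mmp2, a matrix protease (8.18 and 7.69 against 4.35 to 5.45, at least 7.13-fold), and the laminin genes Lama1 and Lama5 rose, the last 2 by at least 4.48 and 3.92-fold. Mfap4, of elastic microfibrils, had 5.63 and 9.17 against 11.60 to 12.20 (22.5-fold lower, adjusted p = 0.0028). Mfap2 fell to background, Timp3, a protease inhibitor, fell by 1.74 ± 0.10, and the differences of Col5a1 and Tnc were -1.53 and -1.90. Of Notch and Id genes, Hes1 had 5.82 and 5.78 against 7.74 to 8.47 (4.89-fold lower, adjusted p = 2.9e-04) and Id1 4.62 and 6.84 against 7.91 to 9.88 (at least 6.71-fold lower). Hes5, Hey1 and Id2 had no shared change. Hes6 was not called at its brightest probe (-0.61 ± 0.23, adjusted p = 0.14) and fell at 2 others, with differences of -0.88 and -0.82.

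By size of difference, most of the other genes that stood out were on no list. Where both tissues were measured, the rises after Lyz1 were led by Psg23 (ILMN_2972829), of the pregnancy-specific glycoproteins, with 10.08 and 10.54 against 4.76 to 6.57 (at least 25.4-fold, adjusted p = 4.2e-05). Zbtb20, a transcriptional repressor, had 10.73 and 11.10 against 6.40 to 7.39 (16.3-fold), and its other probe rose by 4.89. Smoc1, a secreted calcium-binding protein, had 10.54 and 10.15 against 6.01 to 7.07 (15.3-fold). Pdzrn4, Mical1, an oxidase that disassembles actin, Serpina3n, an acute-phase protease inhibitor, Vezt, a protein of adherens junctions, and Gm11541 rose by 4.24, 3.74, 3.58, 3.55 and 3.52. Frmd4a rose by 3.69 at ILMN_2429551 and at 2 dimmer probes, but its brightest probe gave 0.15 ± 0.14. Prm1, the sperm protamine gene, had 12.18 and 12.16 against 9.79 to 10.66 (1.95 ± 0.22, 3.85-fold, adjusted p = 7.8e-04). It was the 1 measured gene of 13 germline genes with a probe. Their summed level was 10.10 to 10.84 in these 8 GNP arrays and 7.82 in all wild-type and NdpKO GNP arrays. The signal thus went with the Ptch genotype. NdpKO;Ptch+/- GNP replicate 2, whose title and labels disagree, had 10.20, the level of the arrays titled as Ptch mutants.

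Among genes at background in the GNPs, Pou5f2, a POU domain factor, had 8.64 and 8.67 against 4.11 to 4.19, and Prmt8, an arginine methyltransferase of neurons, 8.59 and 8.53 against 4.16 to 4.39. Both were even between the MBs and at least 12.6 and 11.8-fold higher. The cerebellin gene Cbln4, the transcription factor genes Zfhx3 and Ebf2, and 6330415B21Rik were at least 23.01, 13.7, 11.7 and 21.0-fold higher. The keratin gene Krt12 had 5.69 in the Ptch+/- MB and 11.77 in the NdpKO;Ptch+/- MB, and its call was lost when any of the 4 NdpKO;Ptch+/- GNP arrays was left out (adjusted p = 0.051 to 0.054). Luc7l2 rose at least 13.3-fold at ILMN_2514225, whereas its brighter probe gave 0.06 ± 0.30.

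Falls were led, besides genes given above, by Slc38a5, an amino acid transporter, with 8.51 in the Ptch+/- MB and 4.21 in the NdpKO;Ptch+/- MB against 10.57 to 11.49. Ndn, an imprinted gene that restrains growth of neurons, had 8.83 and 8.61 against 12.48 to 12.83 (-3.91 ± 0.10, 14.99-fold, adjusted p = 1.4e-07). Fabp3, a fatty acid-binding protein, Islr2, Itm2a and Rem2, a GTPase that inhibits calcium channels, fell, with differences of -4.46, -4.39, -4.15 and -4.10. Ccl27a, a chemokine, fell to background from 10.11 to 11.04 (at least 44.0-fold). Scg2, a granin of secretory vesicles, Cpne6, Grb10, an imprinted adaptor of insulin signalling, and 1700086L19Rik were at least 22.0, 16.2, 15.6 and 15.5-fold lower. Of 2250 genes with 2 or more measured probes, 1305 had a shared change at any of them, 497 of these had the same call at all measured probes and 52 had a rise at 1 probe and a fall at another.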

How the data were processed

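Total RNA was hybridised to Illumina MouseWG-6 v2.0 BeadChips. The deposited values are log2 intensities after background correction and quantile normalization by the authors with neqc of limma, which gives all arrays the same distribution, so a shift of all probes together cannot be seen. No chip or scan labels are given, so batches were not examined. The study left out poorly matched probes from its clustering, and no probe was left out here. Of 45281 probes 34885 had 1 gene symbol in the annotation of the array, 18 several and 10378 none.

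Tissue was tested with limma 3.58.1 under R 4.3.3 (lmFit and eBayes at default settings, two-sided, 7 residual degrees of freedom), with Ndp genotype as covariate and Benjamini-Hochberg adjustment over all probes, called under 0.05. The study gives 4 animals per GNP group. The spread comes from GNP arrays alone within a group and from the difference between the MBs. At probes with all GNP arrays at background that spread is narrow, with an SD of 0.05 for Ntrk3. The smallest SE and p there say little about variation among MBs. For lists the probe with the highest mean over the 10 arrays stood for its gene. Genes were named where a rule took the 12 highest and 12 lowest shared changes, with both tissues at or above level 5 and with 1 of them under it, plus list members with a shared change and 10 genes fixed whatever their values. The comparison, the members, the lists, level 5 and the motifs were chosen with earlier results of these data known. The fit was tested on simulated data. Alternatives were leaving out each array, all 16 GNP arrays, no covariate, the replicate number as a block, a filter on level, centring, an intensity trend, 1 probe per gene, array weights and a margin of 1. The number of arrays limits the precision.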

Additional observations from a re-analysis of the deposited data

Results flagged for a closer look

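Among 110 tests for an array apart from the other 3 of its GNP group, 7 values stood out, where chance gives about 5% of tests. NdpKO;Ptch+/- replicate 1 was apart in Neurod2 (11.02, others 10.61 to 10.65) and in the summed immediate-early genes (14.37, others 13.96 to 14.02) and germline genes (10.84, others 10.10 to 10.20). Ptch+/- replicate 1 was apart in the summed astrocyte genes (13.96, others 14.13 to 14.15) and choroid plexus genes (11.92, others 10.58 to 10.76). Ptch+/- replicate 2 was apart in Kcnd2 (9.74, others 9.61 to 9.63) and in the summed ribosomal protein genes (19.23, others 19.29 to 19.30).

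For 17 measured list genes the MBs lay on opposite sides of the GNP range, and at 10 of them at least 2 apart on the log2 scale. Each MB is a single sample, so these differences between the MBs were not tested. As the Ptch+/- MB minus the NdpKO;Ptch+/- MB, the elastin gene Eln differed by -5.76, the immediate-early gene Egr3 by 4.73, the asparagine synthetase gene Asns by 3.62, the LIM protein gene Pdlim3 by -3.59 and the Notch target gene Hes5 by 3.28. The collagen genes Col6a1 and Col18a1 differed by 2.67 and -2.07, the connexin gene Gjb6 by 2.67, the mitochondrial folate enzyme genes Mthfd2 and Shmt2 by 2.17 and 0.84, the homeodomain protein gene Hopx by -2.11 and Ptch1 by 1.67. Smaller gaps were found for the ribosomal protein genes Rpl4 (0.97) and Rps15 (0.43), for Id2 (-0.78), for the cytochrome c gene Cycs (0.75) and for Lamp1 (0.48).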

How the results depend on the processing

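No shared rise became a shared fall or the reverse under any alternative. The range rule fixed this in advance wherever the array values were kept, which is all alternatives but centring. Of the shared rises and falls 69.2% and 59.3% kept their call without the Ptch+/- MB, and 72.2% and 64.9% without the NdpKO;Ptch+/- MB. With single arrays left out, probes called higher numbered 3339 to 3747 and lower 1916 to 2655, shared rises 3330 to 3648 and falls 1912 to 2558, and at measured probes 1893 to 2318 and 1838 to 2310. Probes with MBs above the GNP range numbered 5335 to 9308 and below it 5587 to 9656, with the highest counts where 1 MB was left out and the other alone had to pass (8965 and 9472 without the Ptch+/- MB). List members with a shared change numbered 64 to 82 higher and 106 to 114 lower. Replicate numbers did not pair the arrays, since deviations correlated at -0.31 to 0.05 and 0 of 4 numbers matched best. With the replicate block 2124 and 1486 probes were called, 2091 and 1452 were shared and 1446 and 1381 of these were measured, and 5 of 58 named genes lost their call. With 1 probe per gene, which tests 19057 probes, called numbered 1869 and 1675, outside the range 2321 and 2790, shared 1796 and 1609, and measured 1362 and 1497. The filter on level left 12134 probes, with 2711 and 3232 outside the range and 47.0% of shared changes higher, against 58.8% over all probes. Array weights gave 1668 probes called lower and 1658 shared falls. A margin of 1 left 809 and 634 outside the range, 808 and 631 shared, the same numbers among measured probes, and 29 and 63 list members of 75 and 116. The cause was not tested. Level 5 limits what can be seen, since 1436 shared rises lay below it.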
